A study of Homo sapiens with 6 samples.

Results

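The cytosolic ribosomal protein genes, which encode the protein parts of the ribosome in the cytoplasm, were followed in 6 RNA sequencing libraries of human colonic epithelial cells. Members were taken by symbol. Every entry beginning with RPL or RPS and a number was kept, with an optional A, X, Y1, L or L1 ending, and RPLP0, RPLP1, RPLP2, RPSA and GNB2L1 (now called RACK1) were added. This gave 86 of the 24462 symbols in the files, 34 of the small (40S) and 52 of the large (60S) subunit, and entries that repeated a symbol were added together. RPS4Y1 enters the counts below but is not described on its own.

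Of the 6 libraries, 3 came from 1CT, a line of human colon epithelial cells (HCEC) that were immortalized and are labelled wild type, and 3 from 1CT-A, its derivative depleted of wild type APC and labelled APC knockdown. All cells were untreated and grown in the same medium with epidermal growth factor, insulin, transferrin, sodium selenite, hydrocortisone and serum. APC is a tumor suppressor that restrains Wnt signaling. The labels give no passage or clone for either line and do not say whether the 3 libraries of a line came from separate cultures, so p-values measure the spread between these libraries, which may be technical. A level below is given in CPM, the counts of a gene scaled to a library total of 1000000. The libraries were made by QuantSeq, which reads each transcript near its 3′ end, so a level was not divided by gene length.

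The libraries held between 7788679 and 8452258 counts in 1CT and between 11158108 and 12602988 in 1CT-A, which was 1.43 times deeper on average. APC itself was at 49.3, 43.8 and 46.6 CPM in 1CT and at 31.5, 30.0 and 34.4 CPM in 1CT-A, lower in all 3 libraries (log2 fold change −0.58, SE 0.09). Replicate 3 of 1CT stood apart from the other libraries. Of 16 markers of colon epithelium, 12 were at or under 3 counts in every library, among them EPCAM, CDX2, VIL1 and LGR5, and the list summed to between 13.5 and 17.5 CPM in 1CT libraries and between 3.23 and 7.28 CPM in those of 1CT-A. All 8 mesenchymal markers were above 3 counts, with sums between 44558 and 52644 CPM in 1CT libraries and between 21938 and 23376 CPM in those of 1CT-A, so the labelled epithelial identity is not borne out by these marker transcripts. Most of that sum was FN1, at 40237 to 47281 CPM in 1CT libraries against 17421 to 19040 CPM, and COL1A1 was also lower in every 1CT-A library. COL3A1, TWIST1 and ZEB1 were higher in every 1CT-A library, COL3A1 at 31.5 to 66.8 CPM in 1CT libraries against 240 to 269 CPM, while VIM, CDH2 and COL1A2 overlapped. Of 3 immune markers 1 was above 3 counts in some library, and of 3 endothelial markers none was. The part of these markers in the results below was not tested.

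A ribosome is built from ribosomal RNA and about equal amounts of each ribosomal protein, so the genes are transcribed at high and coordinated rates in growing cells. Most of their mRNAs begin with a cytosine followed by a run of pyrimidines, the 5′ terminal oligopyrimidine (TOP) tract, through which growth signals such as mTOR set their translation. The colon epithelium renews continuously, and its dividing cells make ribosomes at each division. Several members have paralogs with restricted or partly different use, and inherited loss of a copy of certain members causes Diamond-Blackfan anemia.

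The start windows of the members described most closely are printed here because the TOP tract is the sequence feature that most members share. Each window is taken from RefSeq on GRCh38.p14, holds 10 bases before the annotated transcription start and 20 bases from it onward, reads 5′ to 3′ on the strand of the gene, and has runs of at least 8 pyrimidines in capitals. Where a gene has several annotated starts, the window with the longest run is shown. A run anywhere in a window is not by itself a TOP tract, which lies at the 5′ end of the mRNA. The first set shows some of the members with large changes or high levels that hold such a run.
RPS14, chr5:150449720-150449749, minus strand: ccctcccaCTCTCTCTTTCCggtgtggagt
GNB2L1, chr5:181243887-181243916, minus strand: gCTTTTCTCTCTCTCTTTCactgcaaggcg
RPL22L1, chr3:170870176-170870205, minus strand: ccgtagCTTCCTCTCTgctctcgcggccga
RPL15, chr3:23917122-23917151, plus strand: aaggcattgtgggagtacagCTCTTTCCTT
RPSA, chr3:39406710-39406739, plus strand: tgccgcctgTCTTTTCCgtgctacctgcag
RPLP0, chr12:120201092-120201121, minus strand: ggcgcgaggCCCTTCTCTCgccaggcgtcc
RPS27A, chr2:55232668-55232697, plus strand: gggcctgcgcggcgTTCTTCCTTTTCgatc

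The second set shows 4 paralogs without a run of that length, among them RPS27L, the member with the largest fall.
RPS27L, chr15:63157458-63157487, minus strand: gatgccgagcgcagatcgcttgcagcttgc
RPL26L1, chr5:172958719-172958748, plus strand: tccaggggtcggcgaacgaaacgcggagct
RPL7L1, chr6:42879606-42879635, plus strand: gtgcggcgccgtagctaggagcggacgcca
RPL10L, chr14:46651762-46651791, minus strand: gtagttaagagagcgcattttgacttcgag

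The third set shows the partners of 3 paralogs, each of which holds a run.
RPS27, chr1:153990752-153990781, plus strand: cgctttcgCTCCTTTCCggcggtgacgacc
RPL26, chr17:8383174-8383203, minus strand: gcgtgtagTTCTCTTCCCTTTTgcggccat
RPL22, chr1:6199576-6199605, minus strand: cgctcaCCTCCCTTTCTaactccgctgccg

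Start windows could be read for 69 of the 86 members, and 56 of them (81.2%) held a run of at least 8 pyrimidines on the sense strand, against 15.4% of 27305 genes with such a window. The 13 members without one were RPL3, RPL6, RPL7L1, RPL10L, RPL12, RPL17, RPL26L1, RPL32, RPL36, RPS3A, RPS4X, RPS27L and RPS29. CTTTCC on the sense strand, which overlaps the pyrimidine run where both occur, lay in the windows of 27.5% of members and of 1.51% of all 35116 promoters. Over the whole promoter, 250 bases before to 50 after the start on both strands, CCGGAAG, the core bound by ETS family factors, was present in 34.8% of members and 10.3% of all promoters, and AAGATGGC, which is bound by YY1, in 11.6% and 2.89%. CACGTG, the E-box bound by MYC and its partners, was present in 7.25% of members and 7.26% of all promoters, and TATAAA in 10.1% and 11.5%. For these motifs a member counted if any of its annotated starts had a match, while the comparison counts each of the 35116 promoters. A member with several starts has more chances, so the paired shares are on unlike units. A match is a description of these letters in these windows and not a mapped binding site.

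Ribosomal protein mRNAs took a large and similar share of all counts in both lines. The share was 9.88%, 9.37% and 10.32% in the 1CT libraries (9.86% ± 0.47, SD, n = 3) and 10.73%, 10.59% and 10.38% in the 1CT-A libraries (10.57% ± 0.18, SD, n = 3). Every 1CT-A library lay above every 1CT library, but replicate 3 of 1CT and replicate 3 of 1CT-A were nearly level, and the ratio of the means was 1.07. The rest of the library moved as well, and the most abundant symbol, FN1 for fibronectin, held between 4.02% and 4.73% of 1CT counts and between 1.74% and 1.90% of 1CT-A counts. With the 10 highest symbols of each library left out of the total only, the mean was 11.3% in 1CT and 11.7% in 1CT-A. Those symbols included 2 members in each 1CT library and 3 in each 1CT-A library, whose counts stayed in the member sum. These values are therefore not shares of the remaining library and do not show what leaving out FN1 alone would do. The 40S genes held 4.94% of counts in 1CT and 5.18% in 1CT-A and the 60S genes 4.92% and 5.39%, as means of 3 libraries with no test. Since the values are shares of a library, more ribosomal protein mRNA per cell and less of other mRNA cannot be told apart.

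The order of the members by level was almost the same in both lines (Spearman's rho 0.996 over 84 members, a description, since both lines share the same genes, kit and counting). Levels of the 84 tested members ran from 13.1 CPM for RPL39L to 10712 CPM for RPS27A, an 817-fold range, with 31 members above 1000 CPM and 9 under 100 CPM. RPS27A, made as a fusion of ubiquitin with a 40S protein, was at 10023, 9779 and 10726 CPM in 1CT and at 11085, 11598 and 11060 CPM in 1CT-A (log2 fold change 0.11, SE 0.06, adjusted p = 0.17). Its groups did not overlap, but it did not pass the test. RPL27A of the 60S subunit was at 10268, 9176 and 10484 CPM in 1CT and at 11307, 10313 and 10163 CPM in 1CT-A, and its groups overlapped (log2 fold change 0.05, SE 0.07). RPS27A and RPL27A did not differ in level beyond the spread of the libraries, and RPLP0 and RPS14 followed with means of 5140 and 4086 CPM. The 5 highest members held 33.2% of all counts on members.

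**Figure D1:**
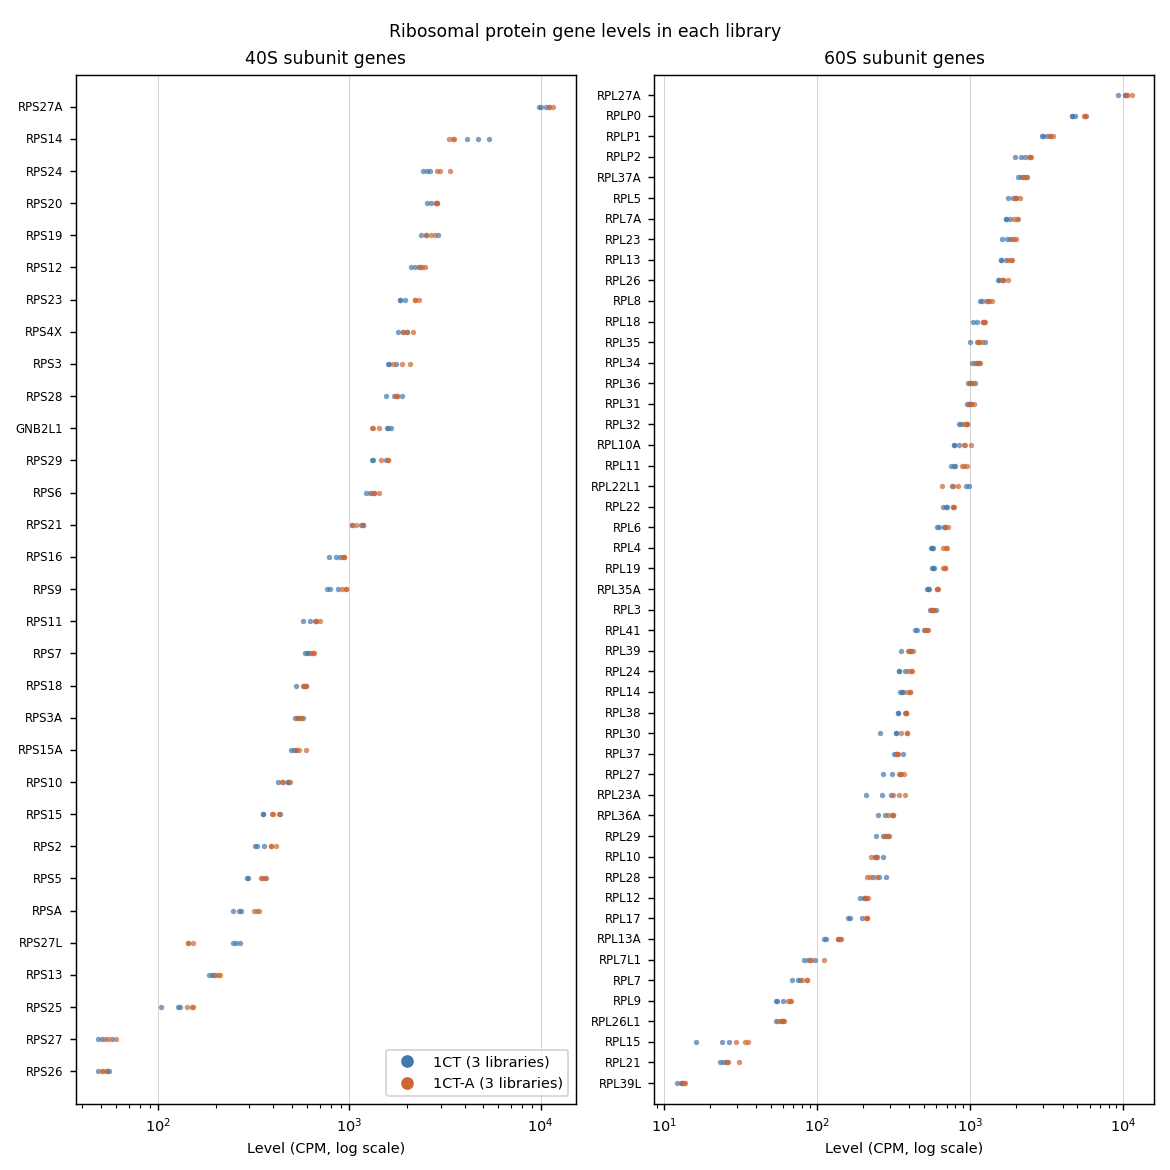
Level of each tested member in each library, in CPM on a log axis, with the 40S genes on the left and the 60S genes on the right, ordered by mean level (1CT blue, 1CT-A orange, 3 libraries each, 4 members not drawn). The points of a gene mostly lie on top of each other, while genes differ 817-fold, from RPL39L at 13.1 CPM to RPS27A at 10712 CPM; RPS27L, RPS14 and GNB2L1 show the 1CT points to the right of the 1CT-A points.

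Reads of near-identical copies limit what a level shows. Members have many processed pseudogenes, copies of their mRNA elsewhere in the genome, and RefSeq lists 1969 for 79 members that could be looked up, with a median of 16 and up to 137 for RPL21. The median level was 887 CPM for members with at most 10 listed pseudogenes (n = 29), 944 CPM with 11 to 20 (n = 16) and 496.5 CPM with over 20 (n = 34). For RPL13A, used as a reference gene in PCR, the gene had a mean of 130.5 CPM and its 5 pseudogene entries together 652 CPM. RPSA had 293.5 CPM and its 3 pseudogene entries 345 CPM, RPL21 26.0 and 48.7 CPM, and RPS26 52.3 and 52.8 CPM. Reads can be split between such entries, so the levels and changes of RPL13A, RPSA, RPL21 and RPS26 are uncertain. When each pseudogene entry was added to its parent, an alternative chosen after seeing the data, 19 members were still called higher and 4 lower. The files hold only 31 such entries, so this does not cover reads of the other listed copies, and other members may be affected too.

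The comparison of 1CT-A with 1CT asks how depletion of APC goes along with the expression of these genes. Of the 84 members that passed the filter on low counts, 19 were higher in 1CT-A, 4 were lower and 61 did not pass the test (edgeR quasi-likelihood test, Benjamini-Hochberg adjusted p under 0.05). Across all 12514 genes tested 25.0% were called higher and 26.0% lower, 51.0% in all. Of the 8224 genes at 10 CPM or more on average, a level that every tested member reached, 31.4% were higher and 23.4% lower. The 22.6% of members called higher is near the first background and below the second. The 4.76% called lower is below both. The changes were small. The median log2 fold change of the members was 0.08 (a fold of 1.06) with an interquartile range of 0.15, against −0.01 and 0.73 for all genes and 0.06 and 0.58 for the 8224 genes at 10 CPM or more on average. All but 2 members, RPS27L and RPL15, lay within 0.5 of 0, as did 63.2% of all genes and 72.0% of those with at least 10 CPM. At the thresholds of the study's methods, a p under 0.01 before adjustment and a change of 2-fold or more, no member was called in either direction, whereas 13.4% of all genes were, 3.8% higher and 9.6% lower. At an unadjusted p under 0.05 alone 21 members were higher and 5 lower (25.0% and 5.95%), none of them by a fold of 2, where 28.0% of all genes were higher and 28.9% lower. DESeq2 gave 18 higher and 4 lower members at an adjusted p under 0.05 (21.4% and 4.76%), where 22.3% of all genes were higher and 23.1% lower.

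By position of the libraries, 41 of the 84 tested members had all 1CT-A libraries above all 1CT libraries and 3 had all below. Of all 12514 genes tested, 3980 (31.8%) lay above and 3494 (27.9%) below. Of the 8224 at 10 CPM or more on average, 3211 lay above and 2019 below. These positions use CPM without further scaling. With library size alone the median log2 fold change of all genes was 0.03, against −0.01 in the main fit. Of the 23 called members 22 did not overlap, and RPL22L1 did. The 40S list had 6 of 34 members higher (17.6%) and 3 lower (8.82%) with a median of 0.06. The 60S list had 13 of 50 tested higher (26.0%) and 1 lower (2.00%) with a median of 0.11. Across all genes tested 25.0% were called higher and 26.0% lower. RPL3L and RPL10L missed the filter.

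The number of members called higher moved with the scaling and with single libraries. With library size alone 28 were higher and 3 lower (33.3% and 3.57% of members), where 27.5% of all genes were higher and 24.1% lower. With upper-quartile normalization 5 were higher and 5 lower (5.95% each), where 21.4% of all genes were higher and 29.3% lower. When each library was scaled to the sum of the members, chosen after seeing the data, 6 were higher and 6 lower (7.14% each), where 19.0% of all genes were higher and 28.3% lower. The share of member calls that were higher thus went from 82.6% to 50.0% with upper-quartile normalization and with scaling to the member sum. Scaling to the member sum holds the members' total equal in every library, so a balance of rises and falls is largely built in there. Without replicate 3 of 1CT 37 members were called higher (44.05%, against 25.3% of all genes) and their median was 0.13. By contrast 8 were higher without replicate 2 of 1CT-A (9.52%, against 21.2%), 10 without replicate 2 of 1CT (11.9%, against 23.1%) and 11 without replicate 3 of 1CT-A (13.1%, against 20.7%). The share of members called higher therefore lay above or below that of all genes depending on the scaling and on which library was left out, while the share called lower stayed below it in each of these fits. None of the 23 called members changed sign under any of the scalings, and 25 of the 84 tested did. GNB2L1, RPL4, RPL15, RPLP0, RPS14, RPS27L and RPSA were called in the same direction in all 19 fits compared.

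**Figure D2:**
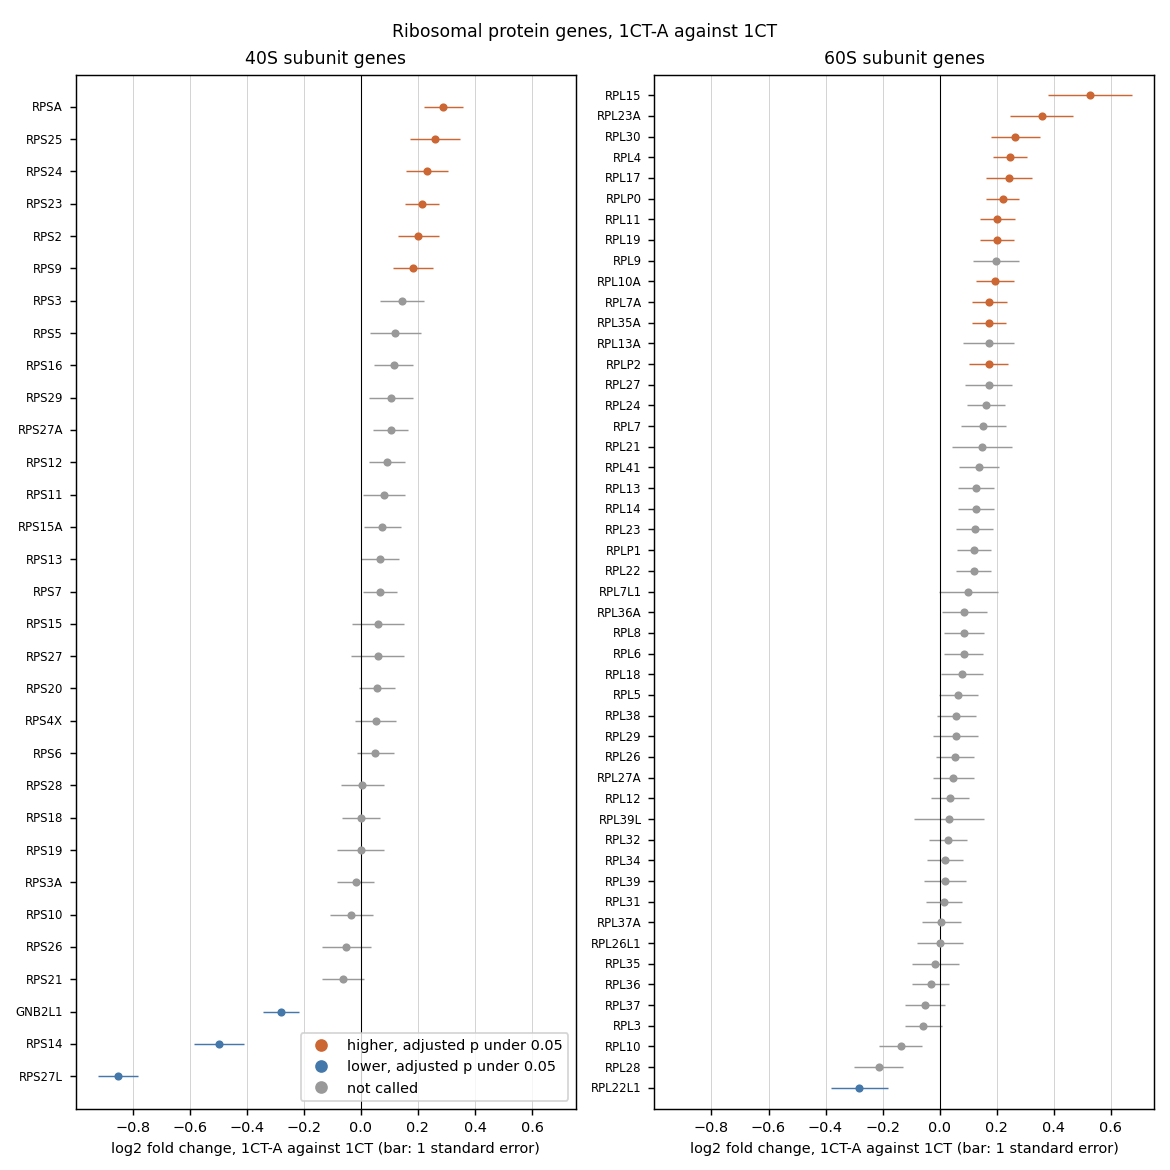
Fitted log2 fold change between the lines (1CT-A over 1CT) for each tested member, with a bar of 1 standard error on each side (orange called higher, blue called lower at an adjusted p under 0.05, grey not called, 4 members not drawn). Most members sit between 0 and 0.3, and RPS27L at −0.85, RPS14 at −0.50 and RPL15 at 0.53 lie farthest from 0.

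The largest fall was that of RPS27L, a paralog of RPS27 known as a target of p53. RPS27L was at 267, 245 and 256 CPM in 1CT (256 ± 11.1, SD, n = 3) and at 142, 152 and 143 CPM in 1CT-A (146 ± 5.18, SD, n = 3). Its groups lay far apart, and it fell by 44.6% (log2 fold change −0.85, SE 0.07, edgeR adjusted p = 5.3e-07). Leaving out any single library kept it between −0.88 and −0.82. RPS27 itself holds a run of at least 8 pyrimidines in its printed window, where RPS27L has none. RPS27 was at 48.6, 51.1 and 57.0 CPM in 1CT and at 60.1, 52.8 and 54.7 CPM in 1CT-A (0.06, SE 0.09). Its groups overlapped.

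RPS14, a 40S protein whose loss of a copy is known from the 5q− syndrome, was at 4705, 4125 and 5357 CPM in 1CT and at 3494, 3517 and 3319 CPM in 1CT-A. It fell by 29.2% (log2 fold change −0.50, SE 0.09, edgeR adjusted p = 3.7e-04). The 1CT libraries spread more widely than the 1CT-A libraries but all lay above them, and without replicate 3 of 1CT the change was −0.38. The pseudogene entry RPS14P3, whose reads may come from the gene, moved in the same direction (617 ± 64.4 CPM in 1CT and 469 ± 9.48 in 1CT-A, SD, n = 3), and with it added RPS14 stood at −0.49. GNB2L1, the scaffold on the 40S head that binds protein kinase C, was at 1655, 1572 and 1597 CPM in 1CT and at 1426, 1319 and 1334 CPM in 1CT-A. Its groups did not overlap (log2 fold change −0.28, SE 0.06, edgeR adjusted p = 0.0022).

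RPL22L1, a paralog that stands in for RPL22 in some ribosomes, was at 942, 982 and 754 CPM in 1CT and at 653, 776 and 834 CPM in 1CT-A. Its groups overlapped, with replicate 3 of 1CT below 2 of the 1CT-A libraries. It was called lower (log2 fold change −0.28, SE 0.10, edgeR adjusted p = 0.031), but lost the call without replicate 1 or 2 of 1CT or replicate 1 or 2 of 1CT-A, with adjusted p between 0.071 and 0.15, and kept it without replicate 3 of either line. It also lost the call with library size alone. RPL22 was at 698, 667 and 709 CPM in 1CT and at 777, 767 and 770 CPM in 1CT-A (0.12, SE 0.06, adjusted p = 0.12). Its groups did not overlap and it did not pass the test.

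**Figure D3:**
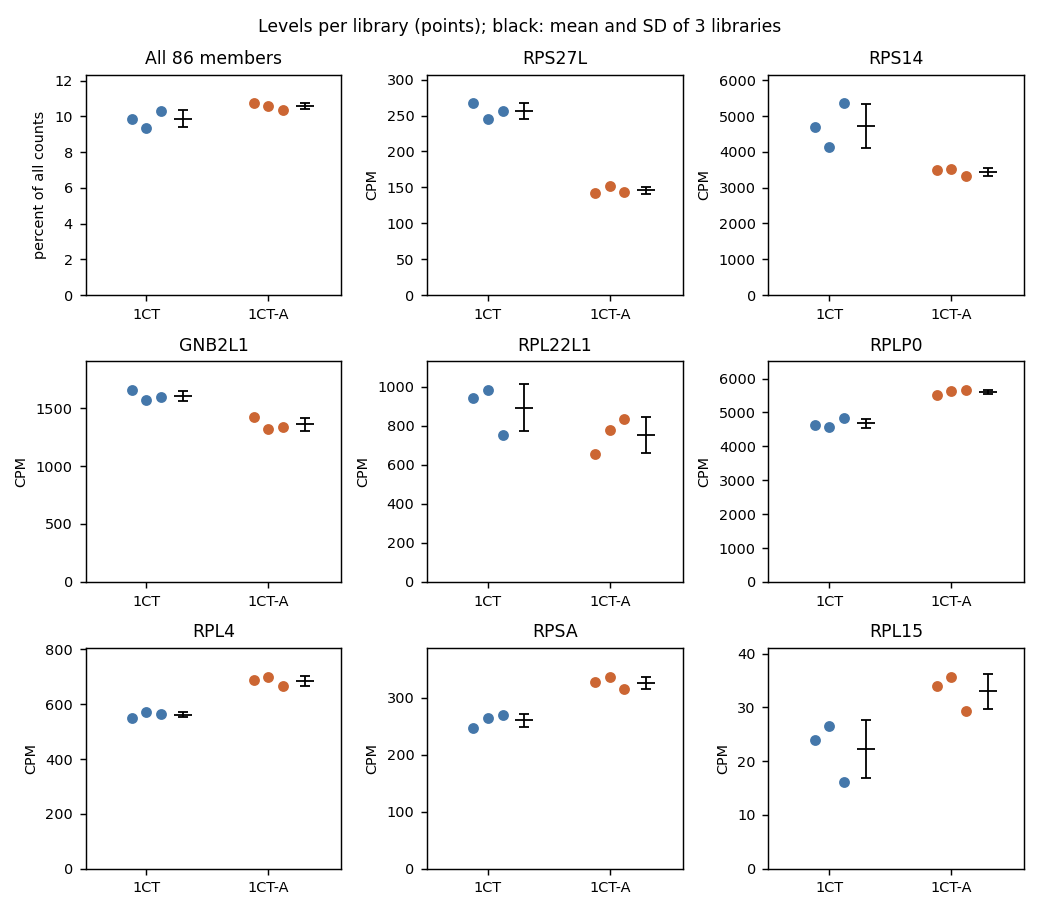
Share of all counts on the 86 members (percent) and levels of 8 members (CPM) in each library, with 1CT in blue, 1CT-A in orange and the mean with its SD over 3 libraries in black; every axis starts at 0. RPS27L, RPS14 and GNB2L1 are lower in all 1CT-A libraries, RPL22L1 overlaps, and RPLP0, RPL4, RPSA and RPL15 are higher in all 1CT-A libraries.

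The other paralogs did not pass the test. RPL7L1 (log2 fold change 0.10, SE 0.10), RPL26L1 (0.00, SE 0.08) and RPL39L (0.03, SE 0.12) all overlapped between the lines. RPL39L, known for its use in the testis, stayed between 12.2 and 13.8 CPM in all 6 libraries. RPL3L, the form of RPL3 in muscle, had 1 count in a single 1CT library and 1 in a single 1CT-A library, and RPL10L, a form of RPL10 in the testis, at most 2 counts, so both are under the floor of 3 counts and have no fold. Their partners RPL3 (−0.06, SE 0.06), RPL7 (0.15, SE 0.08), RPL10 (−0.14, SE 0.08), RPL26 (0.05, SE 0.07), RPL39 (0.02, SE 0.07) and RPS4X (0.05, SE 0.07) did not pass the test either. Of the 5 tested paralogs 2, RPS27L and RPL22L1, were thus lower and none was higher, and RPL22L1 overlapped between the lines. Of the 77 members left without paralogs, RPS4Y1 and GNB2L1, 19 were higher (24.7%) and 1, RPS14, was lower (1.30%). Across all genes tested 25.0% were higher and 26.0% lower, and across those at 10 CPM or more on average 31.4% and 23.4%. The share higher among the 77 is near the first background and below the second. The contrast between paralogs and other members was not tested.

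Among the members that rose, RPL15 had the largest change and a level near the bottom of the list. RPL15 was at 24.0, 26.4 and 16.2 CPM in 1CT and at 33.9, 35.6 and 29.4 CPM in 1CT-A (log2 fold change 0.53, SE 0.15, edgeR adjusted p = 0.0091). Replicate 3 of 1CT was the lowest library, and the change was 0.36 without it. RPL23A, a 60S protein near the exit of the nascent chain, was at 304, 266 and 208 CPM in 1CT and at 311, 373 and 340 CPM in 1CT-A (0.36, SE 0.11, edgeR adjusted p = 0.016). The groups were next to each other at 304 and 311 CPM, RefSeq lists 95 pseudogenes for it, and the call was lost without replicate 2 of 1CT-A and with scaling to the member sum.

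RPSA, a 40S protein also known as the laminin receptor, was at 247, 264 and 269 CPM in 1CT and at 328, 337 and 315 CPM in 1CT-A (log2 fold change 0.29, SE 0.07, edgeR adjusted p = 0.0030). With its pseudogene entries added the change was 0.25. RPL30 was at 327, 327 and 258 CPM against 355, 385 and 386 CPM (0.27, SE 0.09), and RPS25, needed by some viral and cellular internal ribosome entry sites, at 130.5, 126 and 103 CPM against 141, 151 and 151 CPM (0.26, SE 0.09). In both, replicate 3 of 1CT was again the lowest library and the groups did not overlap. Their calls were lost without replicate 2 or 3 of 1CT-A and with upper-quartile or member-sum scaling. RPL4, a large protein of the 60S exit tunnel, was at 551, 572 and 563 CPM against 690, 699 and 665 CPM (0.25, SE 0.06), with the gap several times the spread within either line.

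The stalk of the 60S subunit, which recruits elongation factors, is made of RPLP0, RPLP1 and RPLP2. RPLP0, also a common reference gene in PCR, was at 4626, 4579 and 4830 CPM in 1CT and at 5522, 5624 and 5659 CPM in 1CT-A (log2 fold change 0.22, SE 0.06, edgeR adjusted p = 0.0063). All 3 stalk genes were higher in every 1CT-A library. RPLP2 was at 2132, 1966 and 2269 CPM against 2459, 2491 and 2417 CPM (0.17, SE 0.07, edgeR adjusted p = 0.049), a call that held in 7 of 18 alternative fits. RPLP1 was at 3145, 2942 and 2972 CPM against 3480, 3332 and 3305 CPM and did not pass the test (0.12, SE 0.06, adjusted p = 0.11). Of the other reference genes in PCR, RPS18 was the steadiest, between 528 and 592 CPM in all 6 libraries (0.00, SE 0.07), and RPL13A was not called (0.17, SE 0.09).

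RPL5 and RPL11 form a particle with 5S ribosomal RNA that binds MDM2 when ribosome assembly is disturbed. RPL11 rose from 754, 783 and 789 CPM in 1CT to 910, 956 and 884 CPM in 1CT-A (log2 fold change 0.20, SE 0.06, edgeR adjusted p = 0.015), and its groups did not overlap, though the call was lost in 4 of 18 alternative fits. RPL5 was at 1899, 1762 and 1988 CPM against 2122, 1961 and 1988 CPM and its groups overlapped (0.07, SE 0.07, adjusted p = 0.45). Further members called higher included RPL7A, RPL10A, RPL17, RPL19, RPL35A, RPS2, RPS9, RPS23 and RPS24, with log2 fold changes between 0.17 and 0.24. Their calls held in 9 of 18 alternative fits for RPS9, 10 for RPS2, 11 for RPL7A and RPL35A and 12 for RPL10A. RPL17 kept its call in 13, RPS24 in 15, RPL19 in 16 and RPS23 in 17. Each of these calls was lost with upper-quartile normalization. Of the 19 Diamond-Blackfan anemia genes, 4 were higher (RPL11, RPL15, RPL35A and RPS24) and none was lower, with a median of 0.07. These 4 are 21.1% of the list, near the 25.0% of all genes tested that were called higher, where 26.0% were called lower. They are below the 31.4% called higher among genes at 10 CPM or more on average, where 23.4% were lower.

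RPS14 and GNB2L1 both lie on the long arm of chromosome 5, and their changes are given here beside those of their neighbors. The chromosome was divided at PRR16, a place chosen with earlier results of these data known, and genes at 10 CPM or more on average were ordered by RefSeq position. The 205 other genes after PRR16 had a median log2 fold change of −0.30, with 105 called lower and 25 higher. The 191 before it had a median of 0.17, with 35 lower and 79 higher. Over all chromosomes 8109 such genes had a median of 0.06, with 1910 lower and 2560 higher. The 3 members after PRR16 were RPS14 (−0.50), RPL26L1 (0.00) and GNB2L1 (−0.28), and those before it were RPL37 (−0.05, SE 0.07) and RPS23 (0.21, SE 0.06). The 20 nearest genes around RPS14 had a median of −0.42, with 13 called lower and 3 higher. TCOF1, next to RPS14 in this order of genes at 10 CPM or more, was among those higher (0.50). GNB2L1 was the last of these genes on the chromosome, and the 10 before it had a median of −0.39. RPS27L and RPL22L1 lie on chromosomes 15 and 3, where the medians of genes with at least 10 CPM were 0.11 and 0.10.

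**Figure D4:**
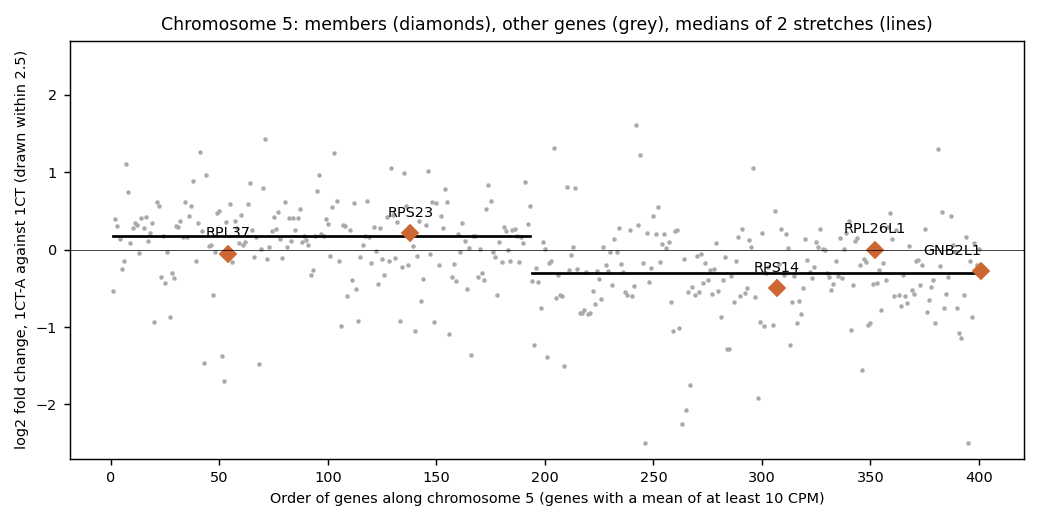
Log2 fold change of genes on chromosome 5 at 10 CPM or more on average, in their order along the chromosome (grey other genes, orange diamonds members, black lines the medians of the stretches before and after PRR16; values beyond 2.5 are drawn at 2.5). GNB2L1 at −0.28 lies near the lower median of −0.30, RPS14 at −0.50 lies below it and RPL26L1 at 0.00 above it. RPL37 and RPS23 lie in the stretch with a median of 0.17.

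The changes were also counted by the pyrimidine run. Of the 56 with a run in their start window, all tested, 14 were higher and 3 lower with a median log2 fold change of 0.09, and of the 12 tested without one 1 was higher (RPL17) and 1 lower (RPS27L) with a median of 0.03. No test of the difference was made. Across all genes tested 25.0% were called higher and 26.0% lower. Of 22 translation genes outside the ribosome known to carry a TOP tract, 5 were higher (22.7%) and none lower with a median of 0.08. The 5 were EEF1D, EIF3E, EIF3M, BTF3 and NACA, named after their values were seen, with log2 fold changes from 0.24 to 0.48. The elongation factors EEF1A1 (0.12, SE 0.07) and EEF2 (0.03, SE 0.07) did not pass the test.

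Genes that make ribosomes and genes of the mitochondrial ribosome had larger median changes than the members. Of 46 tested ribosome biogenesis genes, 33 were higher and 1, NHP2, was lower, with a median log2 fold change of 0.40, and their summed share of counts was 0.473% in 1CT and 0.694% in 1CT-A. Fibrillarin (FBL, 0.66, SE 0.09), nucleolin (NCL, 0.64, SE 0.07) and dyskerin (DKC1, 0.71, SE 0.07), which modify or bind ribosomal RNA in the nucleolus, were among those higher, named after their values were seen. Of 77 mitochondrial ribosomal protein genes, 45 were higher and 1, MRPL41, was lower, with a median of 0.29. Against the background of 25.0% higher, these are 71.7% and 58.4%, beside 22.6% of the cytosolic members. No test of the difference between the lists was made.

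**Figure D5:**
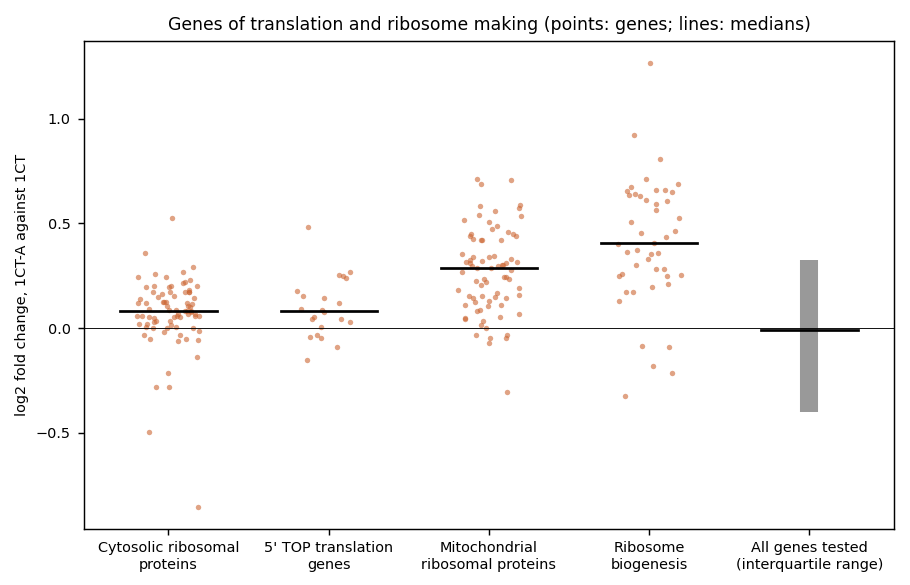
Log2 fold change between the lines (1CT-A over 1CT) for each tested gene of 4 lists (points, with the median as a line; 4 members not drawn) and the interquartile range of all 12514 genes tested (grey bar, with the median). The cytosolic members and the TOP genes cluster near medians of 0.08, and the mitochondrial ribosomal protein and ribosome biogenesis genes spread around 0.29 and 0.40.

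The spread between replicates differed between the lines. The coefficient of variation had a median of 5.80% over members in 1CT and 3.18% in 1CT-A and was larger in 1CT for 69 of 84 members. Replicate 3 of 1CT was the highest of its line for 53 members and the lowest for 17, the latter including RPL15, RPL22L1, RPL23A, RPL30 and RPS25. The deviations of that library from its line's mean had an SD of 0.11 on the log2 scale, against 0.04 to 0.07 in the other libraries. They went along with the GC content of the last 300 bases of the transcript (Spearman's rho 0.45 over 84 members, a description), where the other libraries had rho between −0.34 and 0.23. The fold changes had a rho of −0.05 with that GC content.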

How the data were processed

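Bulk RNA is sequenced from 3 libraries of 1CT and 3 of 1CT-A. The values the authors deposited are raw counts per gene symbol, whole numbers in a separate file for each library, without normalization. Per the labels, QuantSeq libraries are made from 500 ng of total RNA and run on a NextSeq instrument, and the submitters' processing notes name Bowtie2, edgeR and hg19. Their roles, the counting tool, its strand setting and the annotation are not given in the sources used here, so overlapping genes are uncertain. Labels and methods name different RNA extraction kits.

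Each file has 25737 entries for 24462 symbols, and entries of 1 symbol are added together. RPS18 has 6 entries, of which 1 has counts. Groups follow the genotype label. The fit uses edgeR 4.0.16 in R 4.3.3 with TMM factors (0.976 to 1.02), filterByExpr (minimum count 10), no block, the quasi-likelihood test and p-values adjusted by Benjamini-Hochberg over 12514 genes (common dispersion 0.00733). A gene is called at an adjusted p under 0.05. An exact permutation test of 3 against 3 libraries cannot go below 0.1. The fit is tested on simulated data with known changes. Replicates of a line differ by more than counting noise (chi-square per degree of freedom from 3.11 to 9.00). The floor is 3 counts per library and covers counting error only.

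Alternatives are other scalings, filters and tests (limma 3.58.1, DESeq2 1.42.0), the replicate number as a block, libraries left out, and 2 chosen after seeing the data. Same-numbered libraries deviate together with correlations of −0.16, 0.22 and −0.14 over 8224 genes, where differently numbered ones have −0.29 to 0.34. Deviations are taken from the mean of a line's own 3 libraries, which ties these correlations to each other. They cannot show whether the numbers mark a shared batch. Start windows and gene order come from RefSeq on GRCh38.p14, GC content from GENCODE 44 transcripts, and neither is used for the counts. Members and lists were chosen with earlier results of these data known. Named are the 5 highest members, the 5 largest rises and falls among called members, paralogs with their partners, stalk and scaffold members, RPL5, RPL11, RPS27A, the PCR reference genes and members that missed the filter. Other names were chosen after their values were seen. A few members are not reported here by name.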

Additional observations from a re-analysis of the deposited data

How the results depend on the processing

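The count of members called higher (19) was 29 without the filter on low counts, 28 with library size alone, 5 with upper-quartile normalization, 6 with scaling to the member sum, 12 with the replicate block and 4 at an adjusted p under 0.01, and leaving out libraries gave 8 to 37. The replicate block left 5 members lower. Members called lower stayed between 3 and 6, and no member passed the thresholds of the study under any setting. The median log2 fold change (0.08) was 0.023 with upper-quartile normalization and 0.0502 to 0.133 with a library left out. It was 0.0204 with scaling to the member sum, which holds the members' total equal in every library. The mean share of counts on members was 9.63% to 10.1% in 1CT with a library left out. With the 10 highest symbols left out of the total but members kept in the sum, it was 11.3% in 1CT and 11.7% in 1CT-A.

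Of TOP genes, 8 were higher with library size alone, 9 without the filter and 3 to 7 with a library left out, and 1 was lower with upper-quartile normalization. Lower ribosome biogenesis genes were 0 with DESeq2, library size alone, no filter or the replicate block, 2 with upper-quartile normalization and 0 to 1 with a library left out, and lower mitochondrial ribosomal protein genes 0 to 1 with a library left out. For the named members, 517 values under alternatives kept direction and side of the threshold, 30 lost the call and 11 gained one. No called member changed direction. The causes were not tested. At 3 libraries per line and these depths, changes of about the size of the median standard error of members (0.07 on the log2 scale) are not resolved gene by gene.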
